A study of Drosophila melanogaster with 150 samples.

Results

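Turandot genes were measured in whole adult males of Drosophila melanogaster, and 5 of the 18769 probe sets tested belong to them. A probe set was taken as a member when the platform annotation gave it a single symbol made of Tot and a capital letter. The members are TotB (1627975_at), TotC (1639323_at), TotE (1636310_at), TotF (1626526_at) and TotZ (1624279_at). TotE meets that pattern and is listed under the older name Victoria in the RefSeq gene table. TotA, TotM and TotX have no such probe set and were not analysed here. Each of 75 recombinant inbred roo lines gave an array labelled lead and an array labelled control. Lead food held 250 uM lead acetate, and control food held 250 uM sodium acetate, with otherwise standard cornmeal medium per the labels. In each vial 20 males and 20 females laid for 3 days at 25 degrees C on 10 ml of food, and the sample was a pool of 65 of their sons, 5 to 10 days old. A line therefore has a single pool per food, so the spread between pools of the same line and food was not measured.

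Turandot proteins are small secreted peptides of the fly, made mainly by the fat body and released into the haemolymph. TotA, the best studied member, is induced by bacterial infection, heat, drying, ultraviolet light and other stresses. Its induction draws on JAK-STAT signalling, in which the receptor Domeless acts through the factor Stat92E, on the Mekk1 and p38 MAP kinase branch, and on the Imd factor Relish. In the RefSeq gene order TotA, TotC, TotB and TotZ stand in a row on chromosome arm 3R with 0 other genes between them, and TotX follows after 7 genes. TotF and TotE are neighbours on arm 2L, with 0 genes between them.

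Array medians lay between 5.29 and 5.55 on the deposited log2 scale, and their number rather than a read depth limits the precision. On average the male label fitted the markers: the sex peptide SP, Acp36DE of the accessory gland and Mst87F of the testis averaged 11.7, 12.7 and 11.6 over the arrays. Summed linear signal of 14 yolk and eggshell genes ran from 157 to 23414 with a median of 236, and the highest values were on the array labelled lead of line 213 and the array labelled control of line 38. Line 50 labelled lead, the array highest in TotB, was number 13 from the top in this sum, at 2017. Whether pools with high sums held females was not tested. MtnB, a metal-binding metallothionein was above 10 on 76 arrays and below 10 on 74. It was above 10 on 40 of the 75 arrays labelled lead and on 36 of the 75 labelled control, so its level did not separate the diet labels. Both arrays of a line, once diet means were removed, had a mean correlation of 0.0668, little above the 0.000471 of arrays from different lines. Whether every array carries its own line and diet label was not tested, so groups are named by label and each diet and line result holds for the labels as given.

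TotC was the member that varied most. Its signal ran from 3.69 to 12.38 over the 150 arrays with a median of 7.92. Its mean of 8.07 stood above that of 83.4% of probe sets. Its SD of 1.99 was number 22 from the top among 18769 probe sets, whose median SD was 0.219. Few probe sets thus varied as much over the arrays.

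The other members gave low signals. TotB ran from 2.40 to 5.80 with a median of 2.82 and an SD of 0.50, and its mean of 2.95 exceeded that of 15.9% of probe sets. TotE ran from 2.87 to 4.46, TotF from 2.93 to 3.74 and TotZ from 2.62 to 3.40. Their SDs of 0.18, 0.17 and 0.12 lay below the median SD of all probe sets, and their means of 3.23, 3.32 and 2.92 lay far below the median mean of 5.43. No detection calls were given with the values, so whether TotE, TotF and TotZ measured transcript or background was not tested. The same limit holds for TotB on most arrays, as its upper quartile was 2.99. Signals of different probe sets depend on their probes, so these positions among probe sets do not compare transcript amounts.

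**Figure D1:**
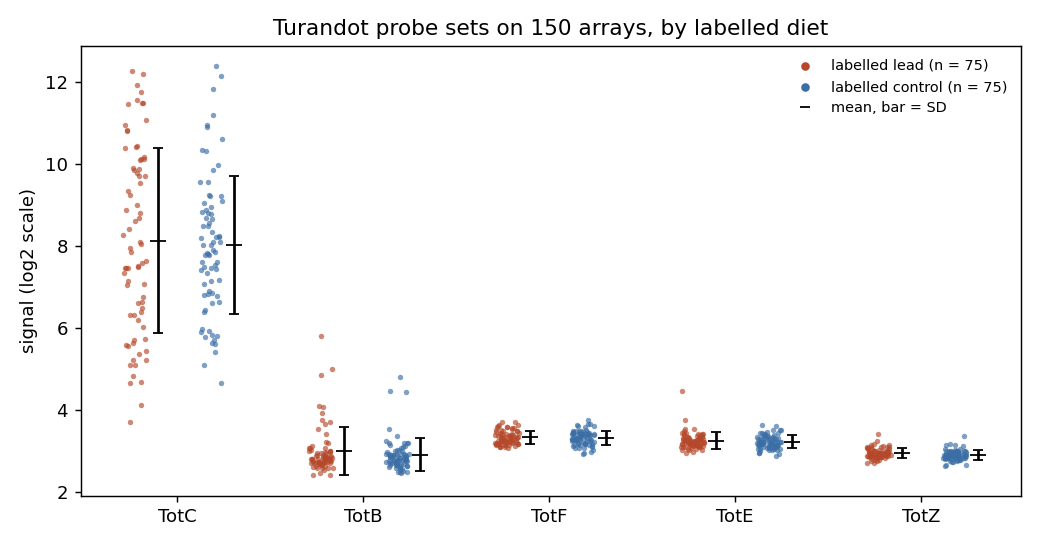
Signal of each Turandot probe set (log2, y axis) on the arrays labelled lead (left in each pair) and control (right). Points are arrays, 75 per label, and bars give the mean and SD. TotC spreads from 3.69 to 12.38 on both labels together, TotB has a tail up to 5.80, and TotE, TotF and TotZ stay in a narrow low band except for an array at 4.46.

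The next question was whether the members moved together over the arrays. TotB and TotC, neighbours on 3R, were positively associated, with Pearson r = 0.57 and Spearman rho = 0.53 over 150 arrays after the diet means were removed. The permutation p was 1e-05 for each, the smallest that the resampling could give. In limma fits of all probe sets on a member, the adjusted p of this pair was 2.79e-10 in the fit on TotB and 6.07e-11 in the fit on TotC. Of the 18768 other probe sets TotC had the highest r with TotB, and the fit on TotB called 0.288% of them. The fit on TotC called 19.2%, a far wider background, in which TotB stood at rank 5.

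The TotB and TotC relation was seen within each set of arrays examined. It was r = 0.58 over the 75 arrays labelled lead and 0.56 over the 75 labelled control. It was 0.60 on arrays with MtnB above 10 and 0.57 on those below 10. Without the 2 arrays farthest from the median of TotB it was 0.58, and without the 2 farthest in TotC it was 0.54. Within the arrays labelled control, leaving out the 2 farthest gave 0.42. The highest TotB values lay where TotC was high, as the scatter of the pair shows.

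**Figure D2:**
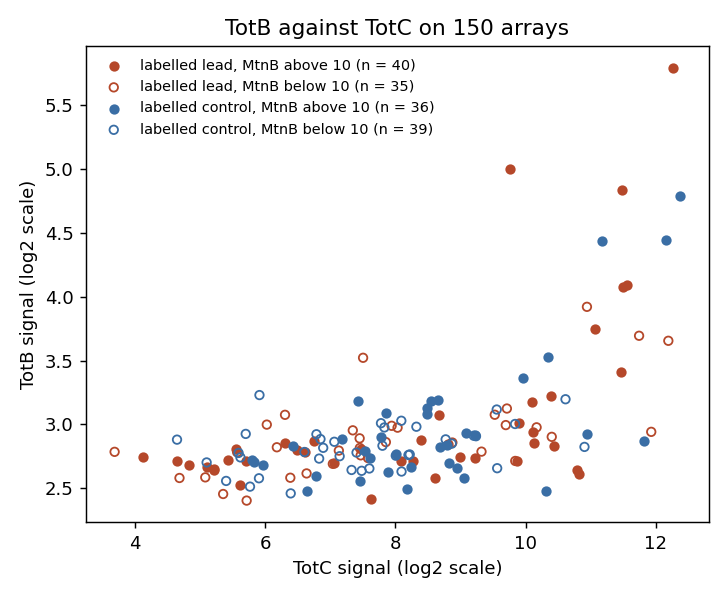
TotC signal (x axis, log2) against TotB signal (y axis, log2) on 150 arrays. Colour gives the diet label and filled points have MtnB above 10. TotB stays near its median of 2.82 over low and middle TotC, and its highest values, up to 5.80, lie at TotC of 9.77 or more.

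TotZ lies beside TotB on the chromosome yet followed neither gene, with r = 0.08 with TotB (permutation p = 0.347) and r = -0.04 with TotC (0.651). TotZ was instead associated with TotF, on another chromosome, at r = 0.38 (permutation p = 1e-05, limma adjusted p of 2.88e-05 and 3.01e-04 in the fits on TotF and TotZ). TotE and TotF, which are neighbours, had r = 0.28 (permutation p = 0.00044), and TotE and TotZ had r = 0.25 (0.00264). By ranks these pairs had rho = 0.22 (permutation p = 0.0074) and 0.13 (0.105). Without the 2 arrays farthest from the median of TotE, r was 0.195 and 0.145. It was 0.41 and 0.35 on arrays labelled lead (permutation p = 0.0001 and 0.0051). On arrays labelled control it was 0.13 for both pairs (permutation p = 0.26 and 0.282). These 3 low-signal probe sets also moved with the median of the array, at r = -0.39 for TotE, -0.51 for TotF and -0.34 for TotZ, against -0.06 for TotC and -0.11 for TotB. After quantile normalization the 3 correlations were 0.22, 0.11 and 0.07. The larger limma adjusted p of each pair's fits was then 0.457, 0.763 and 0.919. After median centring of the arrays the correlations were higher, at 0.54, 0.43 and 0.41. The larger limma adjusted p was then 2.91e-10, 1.66e-06 and 4.73e-06. These scalings thus moved the correlations in opposite directions, and the part of overall array level in them was not otherwise tested. Of the 10 pairs 4 passed in the limma fits over all arrays as deposited, and the other 6 had r between -0.04 and 0.13. The fits on TotE, TotF and TotZ called 11.1%, 46.1% and 22.1% of probe sets, so a call in them sets a member little apart.

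Genes outside the family that flank the clusters had r between -0.31 and 0.35. KaiR1D, a glutamate receptor gene before TotC, had r = -0.31 with TotB (limma adjusted p = 0.0441) and r = -0.25 with TotC (0.0192). Negative calls made up 0.0693% of all probe sets in the fit on TotB and 10.7% in that on TotC. COX4, a subunit of cytochrome c oxidase, had r = 0.35 with TotF (limma adjusted p = 1.24e-04) and 0.06 with TotE (0.669). The fit on TotF called 24.3% of all probe sets as positive. Ktl, Ir93a, CG10481, CG34051, Grik and lncRNA:CR43097 had r between -0.05 and 0.17 with the Turandot genes they flank, none of them called.

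High TotB was confined to few arrays. An array counted as far above the rest when it exceeded the median of a probe set by more than 5 scaled median absolute deviations, which is a description and carries no test. TotB had 9 such arrays above a threshold of 3.86, 6 labelled lead and 3 labelled control. The highest array below it stood at 3.75, in line 29 labelled lead, and the lowest above it at 3.92. Line 50 labelled lead reached 5.80, line 211 labelled lead 5.00, line 224 labelled lead 4.84 and line 17 labelled control 4.79. The remaining 5 were line 77 labelled control at 4.45, line 78 labelled control at 4.43, and lines 9, 75 and 3 labelled lead at 4.09, 4.08 and 3.92. No line was far above on both labels. MtnB was above 10 on 8 of the 9.

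TotC was high on the same arrays, though none was far above by that measure because its spread is wide. Of the 9 arrays 8 were among the 15 highest for TotC, from 10.94 to 12.38. Line 211 labelled lead was lower, at 9.77 and number 34 from the top. The reverse did not hold for every array. Line 44 labelled lead had TotC at 11.93 and TotB at 2.94, and line 202 labelled control had TotC at 11.81 and TotB at 2.87, both TotB values near the median.

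TotE had 1 array far above, line 44 labelled lead at 4.46, and the next was line 222 labelled lead at 3.74. TotE and TotB were thus high on different arrays. TotF and TotZ had 0 such arrays, so there were 10 in all.

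The genes most like TotC were looked for among all probe sets. The 3 highest, with r of 0.96, 0.89 and 0.85, have no symbol in the platform table and are not named here. Among named genes the highest were CtsL3, a cathepsin L-like cysteine protease, at r = 0.66, Nepl21, of the neprilysin-like peptidases, at 0.56, CG30002 at 0.54, BaraB, of the Baramicin genes related to antifungal peptides, at 0.53, and CG43109 at 0.52. The largest limma adjusted p of these 5 was 1.01e-08, in the case of CG43109. CtsL3 was near the same value within both labels, at 0.66 on arrays labelled lead and 0.68 on those labelled control. The labels lay farthest apart for CG30002, at 0.50 with lead and 0.61 in control. Without the lines of the arrays far above, the 5 TotC values were 0.58, 0.47, 0.50, 0.45 and 0.46. Genes most like TotB were CtsL3 at 0.49, yellow-f, an enzyme of melanin formation, at 0.46, CG43109 at 0.43, lectin-24A, a C-type lectin, at 0.40 and Sid, a DNase named for induction by stress, at 0.39. The value of lectin-24A was 0.49 on arrays labelled lead and 0.17 on those labelled control. Without the lines of the arrays far above, these TotB values were 0.25, 0.26, 0.11, 0.31 and 0.17.

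These genes were chosen for following TotB or TotC over the same arrays, so their values there are a description. CtsL3 was highest of all arrays in line 50 labelled lead, at 9.08 against a median of 6.25, and second in line 17 labelled control, at 8.97. Lectin-24A was highest in line 211 labelled lead, at 8.49 against a median of 3.13. BaraB was highest in line 44 labelled lead, at 6.50 against a median of 3.61, and next in line 78 labelled lead, at 6.26, an array whose TotB of 3.66 was under the threshold. The highest array was thus a different one for each of these 3 genes. Other arrays far above in TotB were ordinary in them: CtsL3 was number 72 from the top in line 3 labelled lead, BaraB number 106 in line 211 labelled lead and lectin-24A number 132 in line 78 labelled control.

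The low-signal members had other partners. TotE was most like CG14420 (r = 0.48), CG17826 (0.45), teq, a serine protease gene (0.43), Ir64a, an olfactory ionotropic receptor (0.43), and CG7448 (0.43). TotF was most like CG30457 at 0.58, followed by CG8543 and CG13705 at 0.54 and CG13059 and CG13545 at 0.53. TotZ was most like the probe set listed as mir-4973 at 0.47, CG13545 at 0.46, the homeobox gene ind at 0.45, and the cuticle protein genes Lcp65Aa and Ccp84Ac at 0.45 each. After quantile normalization the 5 values lay between 0.27 and 0.36 for TotE, 0.36 and 0.42 for TotF and 0.22 and 0.28 for TotZ. After median centring of the arrays they rose instead. They then lay between 0.54 and 0.57 for TotE, 0.63 and 0.69 for TotF and 0.58 and 0.61 for TotZ.

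The study asked which genes respond to lead in the food, and no Turandot gene passed the test between the labels. TotC had a lowest value of 3.69, a median of 7.94 and a highest of 12.26 on arrays labelled lead, against 4.65, 7.89 and 12.38 on arrays labelled control. Its mean was 8.12 ± 2.26 with lead and 8.02 ± 1.69 in control (SD, n = 75 each). The groups overlapped over nearly their whole range. Lead minus control within lines was 0.10 ± 0.31 (SE), with a 95% interval from -0.52 to 0.73 and a limma adjusted p of 1.00.

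TotB ran over 2.40, 2.81 and 5.80 (lowest, median, highest) with lead and over 2.46, 2.82 and 4.79 in control. Its means were 3.00 ± 0.58 with lead and 2.90 ± 0.40 in control (SD, n = 75 each), and the difference was 0.096 ± 0.078 (SE), with an interval from -0.06 to 0.25. TotE differed by 0.031 ± 0.029 and TotF by 0.0067 ± 0.030 (SE). TotZ differed by 0.046 ± 0.021 (SE) and was higher with lead in 46 of 75 lines, with an unadjusted limma p of 0.0316. All 5 had a limma adjusted p of 1.00. Of the 18769 probe sets 0% were called between the labels, and 490 had an unadjusted p under 0.05.

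Single lines nonetheless differed widely between their arrays in TotC. The signal was higher with lead in 39 of 75 lines, and the arrays of a line lay more than 2 apart in 41 lines. Line 202 had 4.83 with lead and 11.81 in control, and line 99 had 4.64 with lead and 10.95 in control. Lines 44 and 227 lay the other way, at 11.93 with lead and 7.14 in control, and at 10.39 with lead and 5.77 in control. These lines were chosen for their differences and with 1 array per label carry no test.

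Whether the level followed the labelled inbred line was asked next, with the limit on the labels given above. Over the 75 lines the TotC values of the arrays labelled lead and labelled control had r = 0.05 (permutation p = 0.679), with rho = 0.05. Without the 2 lines farthest from the median on their array labelled control, r was -0.0034. TotB had r = 0.05 (permutation p = 0.654), TotE 0.08 (0.499), TotF -0.20 (0.0822) and TotZ -0.07 (0.573). Adjusted p of limma's moderated F-test of line lay between 0.593 and 0.979, and 0.0107% of all probe sets were called. Line 78 had the highest mean TotC over its arrays, with 12.19 with lead and 11.18 in control, and line 28 the lowest, with 4.12 with lead and 5.91 in control.

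**Figure D3:**
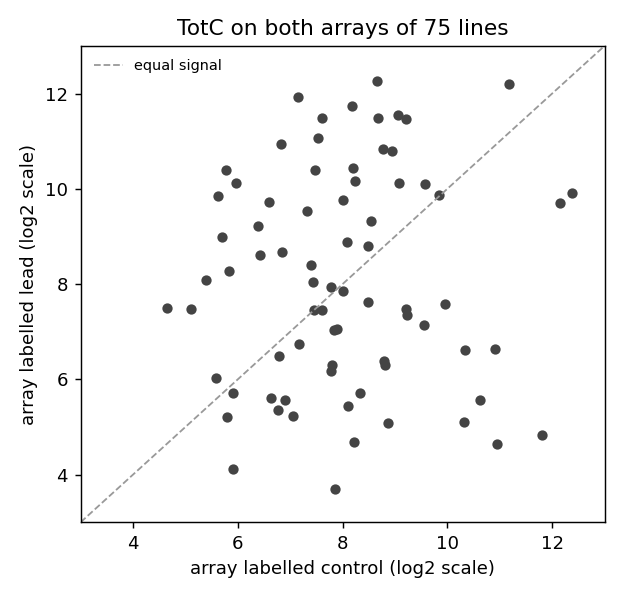
TotC signal (log2) of each of 75 lines on its array labelled lead (y axis) and its array labelled control (x axis), with a dashed line where both are equal. Points scatter over the whole field with r = 0.05, and the lines named in the text include line 202 at 4.83 with lead and 11.81 in control and line 78, high on both.

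The spread between lines did not pass a test of difference between the labels for any member over the 75 lines. The log2 ratio of the variance with lead over control was 0.84 for TotC (Pitman-Morgan adjusted p = 0.290) and 1.05 for TotB (0.116). In the 18 lines numbered above 200 that of TotB was 3.16 (0.00420), and without the lines of the arrays far above it was 0.50 (0.658). The test on ranks gave no ratio but a correlation of the ranked sum and ranked difference of each line's arrays. That correlation was 0.33 for TotC (adjusted p = 0.905) and 0.10 for TotB (0.922). The log2 ratio over the 75 lines was 0.66 for TotE (0.433), -0.20 for TotF (0.860) and 0.02 for TotZ (0.988). Over all probe sets 1.16% were called.

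Arrays with MtnB above and below 10 were compared next, with the diet label in the fit. These sides are defined by a measured gene and are no groups of the study. TotC had a lowest value of 4.12, a median of 8.52 and a highest of 12.38 on the 76 arrays with MtnB above 10, against 3.69, 7.48 and 12.19 on the 74 below. The sides overlapped almost completely, with means of 8.47 ± 2.05 above and 7.66 ± 1.86 below (SD). TotC was higher by 0.80 ± 0.32 (SE; 95% interval 0.18 to 1.43), which is 1.75-fold, with a limma adjusted p of 0.0447. This comparison called 28.7% of all probe sets, 11.7% higher and 17% lower, so a single call among 5 members is near the background.

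The TotC call was close to the threshold and was lost under several settings. With line as a replicate block the difference was 0.77 and the adjusted p 0.395. It was 0.59 (adjusted p = 0.178) with the difference of the 3' and 5' Act5C control probe sets as covariate, a sign of RNA integrity that averaged 2.60 ± 0.50 above and 2.87 ± 0.63 below (SD) and had r = -0.27 with TotC. It was 0.59 (0.160) without the lines of the arrays far above. Within labels, TotC on arrays labelled lead averaged 8.38 ± 2.33 with MtnB above (n = 40) and 7.83 ± 2.18 below (n = 35), a difference of 0.55 with limma adjusted p = 0.569. On arrays labelled control it averaged 8.57 ± 1.71 above (n = 36) and 7.51 ± 1.53 below (n = 39), a difference of 1.06 with limma adjusted p = 0.0261. The difference between the labels was itself -0.51 ± 0.64 (SE) with adjusted p = 0.767, and 0% of probe sets passed that interaction.

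**Figure D4:**
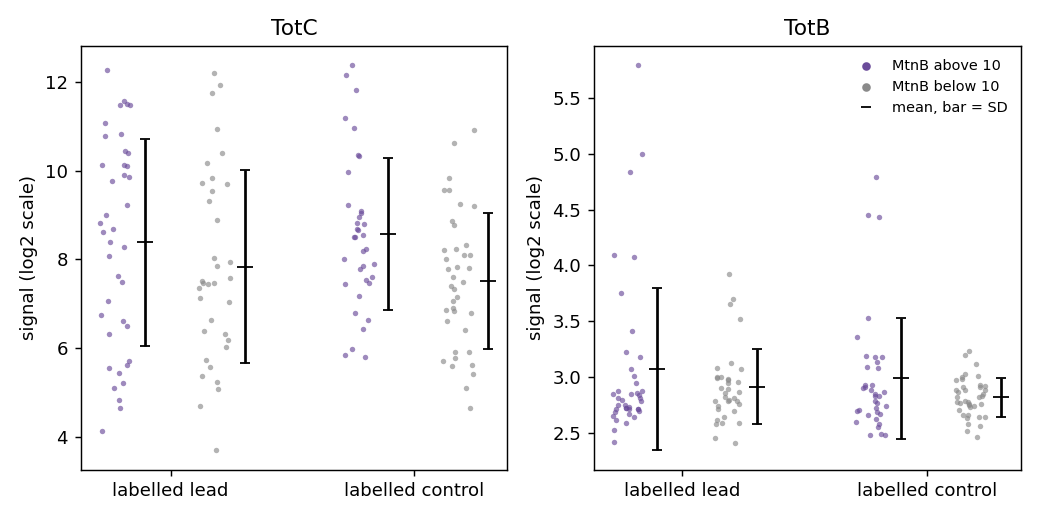
TotC and TotB signal (log2) by diet label and by MtnB above or below 10, with points for arrays and bars for mean and SD. The sides overlap for both genes, and 8 of the 9 highest TotB arrays lie on the side with MtnB above.

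The other members did not pass. TotB averaged 3.03 ± 0.64 above and 2.86 ± 0.27 below (SD), a difference of 0.16 ± 0.080 (SE) with limma adjusted p = 0.121, and without the lines of the arrays far above it was -0.0073. TotZ differed by -0.05 ± 0.020 (SE; adjusted p = 0.0540, and 0.0246 with array weights), TotE by -0.02 (0.647) and TotF by -0.01 (0.908). Tissue markers moved with the MtnB sides as well. Beside 11.7% of all probe sets higher and 17% lower, 8 of 11 gut digestive genes were higher on the arrays above, with a summed linear signal of 17266 to 57077 above and 4930 to 58185 below. Muscle genes were lower in 10 of 11 cases and accessory gland genes in 7 of 10. Fat body genes, from the tissue that makes Turandots, were higher in 6 of 12 cases, with sums of 9783 to 24552 above and 10639 to 26564 below. The part of these markers in the TotC difference was not tested, and in whole flies fewer cells of a type and less RNA per cell cannot be told apart.

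Genes of the pathways that act on Turandots were set beside TotC by lists of signalling genes. Against a background of 8.49% positive and 10.7% negative calls in the fit on TotC, 2 of the 11 JAK-STAT genes measured were positive and 2 negative. Socs44A, a suppressor of the pathway, had r = 0.36 and the adaptor Stam 0.26, while Su(var)2-10 had -0.27 and the repressor ken -0.24. The factor Stat92E had r = 0.20 and missed the threshold (limma adjusted p = 0.0680). The median r of the list was -0.02, beside -0.01 over all probe sets.

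Toll and Imd genes, whose pathways answer fungi and bacteria, moved with TotC in part. In the fit on TotC, 8.49% of all probe sets were positive and 10.7% negative. In the Toll list 6 of 11 were positive and 0 negative, led by the serpin nec (r = 0.46), the glucan receptor GNBP3 (0.34) and the protease psh (0.34). In the Imd list 7 of 13 were positive and 1 negative, with the adaptor imd at 0.31 and the inhibitory PGRP-LF at 0.29. Of 11 antimicrobial peptide genes 6 were positive, with BomS2 at 0.36, Mtk at 0.35 and Drsl2 at 0.33. Drsl2 was the single list gene called in the fit on TotB (r = 0.33, limma adjusted p = 0.0233). MAP kinase stress genes had 4 of 13 positive, among them p38c (0.35), the Jun factor Jra (0.34) and p38a (0.33). Heat shock genes had 1 of 7, the constitutive chaperone Hsc70-4 at 0.32, and 1 of 7 insulin and FOXO genes was positive. Of 3 measured genes in the list of Tep genes and vir-1, secreted or stress-linked targets, Tep4 was positive (0.27). A single call in a list this short sets it little apart from all probe sets.

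**Figure D5:**
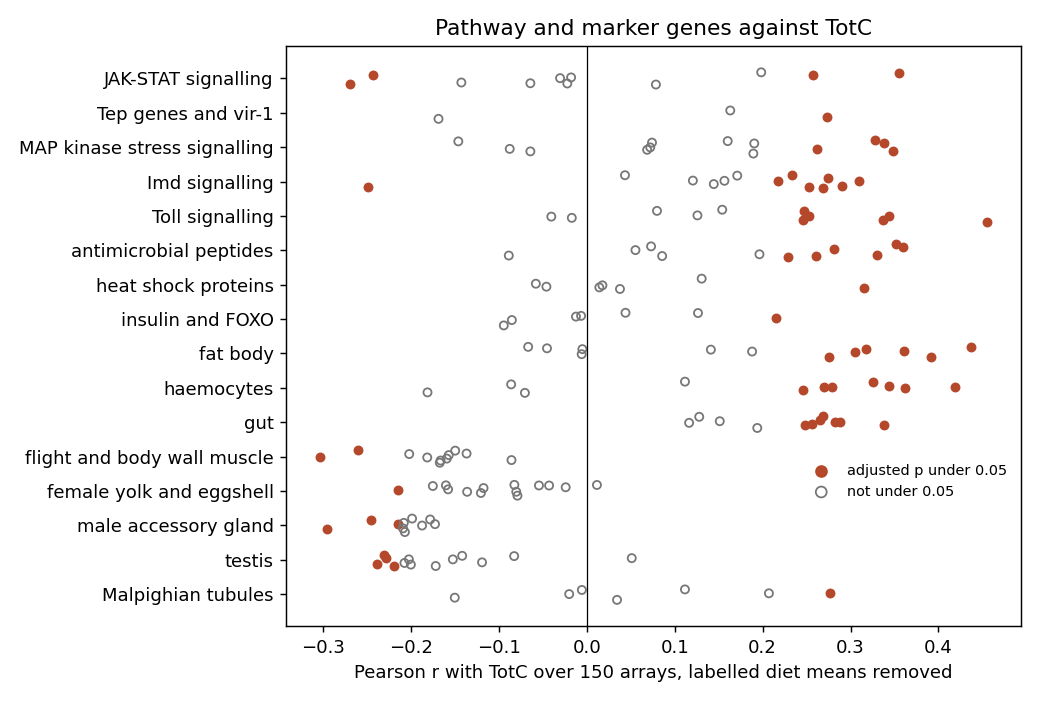
Pearson r with TotC over 150 arrays after removing diet means, for the measured genes of each list (points, filled where the limma adjusted p was under 0.05). Toll, Imd and antimicrobial genes lie mostly above 0, JAK-STAT genes lie on both sides of 0, and the highest r is 0.46 for nec.

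Most of these list counts shrank in the smaller or adjusted fits given here. With MtnB side and diet means removed the background was 4.07% positive. The positive counts were then 3 Toll, 3 Imd, 5 antimicrobial and 1 JAK-STAT genes, while MAP kinase genes stayed at 4. With the Act5C difference removed the background fell to 1.25% positive, and 1 of 11 Toll, 0 of 13 Imd, 2 of 11 antimicrobial, 1 of 11 JAK-STAT and 0 of 13 MAP kinase genes were positive. On arrays labelled lead alone, with 1.98% positive, the counts were 1 Toll, 1 Imd, 0 antimicrobial, 1 JAK-STAT and 3 MAP kinase genes. On arrays labelled control alone, with 1.13% positive, they were 3 Toll, 0 Imd, 4 antimicrobial, 0 JAK-STAT and 0 MAP kinase genes. Without the lines of the arrays far above, with 1.49% positive, they were 2 Toll, 0 Imd, 2 antimicrobial, 0 JAK-STAT and 1 MAP kinase genes. In the fit over all arrays, with 8.49% of probe sets positive and 10.7% negative, 7 of 11 haemocyte, 6 of 12 fat body and 7 of 11 gut genes were positive with TotC, while 2 of 11 muscle, 1 of 14 yolk and eggshell, 3 of 10 accessory gland and 4 of 13 testis genes were negative. Of Malpighian tubule genes 1 of 7 was positive, and the yolk and tubule shares are near those of all probe sets. With the Act5C difference removed the positive counts were 3 haemocyte, 3 fat body and 0 gut genes, and without the lines of the arrays far above they were 4, 4 and 1. With MtnB side and diet means removed they were 7, 5 and 3. The part of these tissue genes in the list counts was not tested.

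On arrays with MtnB above 10 list genes lay in both directions, beside 11.7% of all probe sets higher and 17% lower. The kinase p38c was higher by 1.25 ± 0.10, PGRP-SC2, an enzyme that degrades peptidoglycan, by 1.00 ± 0.12, Drsl2 by 0.87 ± 0.12 and GNBP3 by 0.56 ± 0.083 (SE), each with a limma adjusted p of 1.44e-08 or less. In JAK-STAT 3 of 11 were higher and 0 lower, Stat92E by 0.18 ± 0.038, Socs44A by 0.14 ± 0.030 and Stam by 0.14 ± 0.036 (SE). Counts were 7 higher and 1 lower of 11 in Toll, 7 and 1 of 13 in Imd, 5 and 2 of 13 among MAP kinase genes, and 3 and 1 of 11 among antimicrobial peptides. Heat shock genes had 1 higher of 7, and insulin and FOXO genes 2 higher and 2 lower of 7. Of the secreted targets Tep4 was higher by 0.15 ± 0.051, while Tep3 fell by 0.14 ± 0.050 and vir-1 by 0.19 ± 0.078 (SE). The factors Atf-2 and kay of the MAP kinase list fell by 0.20 ± 0.060 and 0.13 ± 0.041 (SE). Def, an antibacterial defensin, fell by 0.58 ± 0.16 (SE; adjusted p = 0.00310). Between the diet labels 0 genes of any list were called.

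On the arrays far above for TotB or TotE, antimicrobial peptides as a group were not uniformly high. Their summed linear signal was number 6 from the top in line 17 labelled control, at 5718, and number 130 in line 78 labelled control, at 1712, beside a median of 2945. No other of these arrays was below that median, and the next lowest was line 211 labelled lead, number 73 at 3037. Heat shock sums ran from number 3, in line 75 labelled lead, to number 145, in line 211 labelled lead.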

How the data were processed

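Total RNA of pooled males (50 mg of flies per the labels' protocols) was hybridised to Affymetrix arrays. The authors deposited processed values for 18952 probe sets on 150 arrays, read as log2 from their range. Not given in the sources used here were the summarisation, normalization software and genome build. The 183 array controls were left out and 18769 probe sets tested without a signal filter, and 13647 have a single platform symbol. Names and gene order came from the RefSeq gene table. Tests used limma 3.58.1 in R 4.3.3 with Benjamini-Hochberg adjustment over all probe sets at 0.05, with line as block for diet, which the labels give on both foods. Deviations from diet means correlated at a mean of 0.0668 between arrays of a line and 0.000471 between lines. MtnB sides had diet as covariate. Correlations followed removal of diet means, with 100000 permutations; pair p-values are raw beside limma's. All tests were two-sided, and scripts were tested on simulated data. P-values measure the spread between these pools. Members, lists and the named genes (the 5 most alike per member, up to 4 per list for MtnB and 3 for TotC, and 2 flanking genes a side) were chosen with earlier results of these data known. Alternatives were other normalizations, filters, weights, ranks, blocks and subsets of lines or arrays.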

Additional observations from a re-analysis of the deposited data

How the results depend on the processing

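The 0 calls between diet labels held in every alternative run, including the fit with no replicate block, where TotC differed by 0.10, and the association of TotB with TotC kept an r or rho between 0.42 and 0.61 over the settings and array subsets run. The MtnB comparison called 1645 probe sets with the replicate block, 2326 on arrays labelled lead and 432 in lines above 200, beside 5384. TotC kept its MtnB call in 9 of 15 alternatives, and lost it also in lines 1 to 100 (0.68, adjusted p = 0.188) and above 200 (1.22, 0.360). The line effect called 0 probe sets after median centring, 1 among probe sets above the median signal, 1 in lines 1 to 100 and 0 above 200. The spread called 47 with that filter, 110 in lines 1 to 100, 332 above 200, 121 without lines 38 and 213, and 0 on ranks. Turandot pairs called numbered 2 by Spearman rho, 2 with lead, 2 in control and 1 after quantile normalization. The fit on TotC called 507 probe sets with Act5C removed, 1477 with MtnB side and diet removed, 516 with lead, 268 in control and 350 without the lines of the arrays far above. Signs turned, always for values short of the threshold, as follows. For MtnB, TotF became 0.0084 after quantile normalization, 0.00075 in lines 1 to 100, 0.0013 without lines 38 and 213, 0.041 in control, 0.00056 with MtnB continuous and 0.026 by rank sum, where TotB was -0.0046 and TotE 0.016. Without the lines of the arrays far above, TotB was -0.0073, the diet difference of TotC -0.18, the line r of TotB -0.14 and of TotC -0.092, and the spread of TotE -0.37 and of TotZ -0.20. In lines above 200 the diet differences of TotE and TotF were -0.017 and -0.086, line r of TotB, TotC and TotE was -0.37, -0.10 and -0.21, and the spread of TotF was 0.37. The diet difference of TotF by signed rank was -0.0024, and the line r of TotE after quantile normalization -0.0039. In lines 1 to 100 TotZ had line r 0.020 and spread -1.06, and its spread without lines 38 and 213 was -0.013. For TotE the correlation of ranked sum and ranked difference was -0.11. In control, r was -0.10 for TotB and TotE, -0.029 for TotB and TotF, -0.031 for TotC and TotE and 0.00075 for TotC and TotZ. It was -0.015 for TotB and TotE after quantile normalization, 0.0014 for TotC and TotZ with MtnB side removed, and -0.0013 and -0.027 for TotF with TotB and with TotC with Act5C removed. The lines 38 and 213 setting was added after seeing the data. The cause of these changes was not tested, though subsets hold fewer arrays. With a single pool per line and food, no array could be left out as a replicate.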
